A study of Drosophila melanogaster with 35 samples.

Results

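The dpr and beat genes encode surface proteins of the immunoglobulin superfamily that fly neurons use to recognise one another. They were taken as every gene of the deposited expression table listed under a dpr, DIP or beat family symbol (a family name followed by its number or letter), and 32 of its 14279 genes met the rule. Of these, 19 were dpr genes (dpr2 to dpr20), 13 were beat genes and 0 were DIP genes. The 11 DIP genes were in the table under CG numbers, and dpr1 and dpr21 were listed as dpr and CG42596. These 13 genes were found by their FlyBase gene ID and are described beside the 32 as relatives, not counted among them.

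Dpr proteins (defective proboscis extension response) sit on subsets of neurons and bind particular DIPs (Dpr-interacting proteins) on their synaptic partners, and the pairs take part in choosing partners and in neuron survival in the optic lobe, the mushroom body and the neuromuscular system. Beat-Ia (beaten path) is made by motor neurons and lets their axons leave the bundle when they meet Side (sidestep) on the muscle, and other Beat proteins bind other members of the Side family. Their expression is sparse and specific to cell type, so a head sample reports the sum over many kinds of neurons.

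RNA-seq was run on adult heads of 1-week-old Drosophila melanogaster in 35 libraries of 12 genotypes, with 3 libraries each except 2 for tau. All 12 genotypes, the controls included, carried Repo-LexA, which acts in glia and drove the LexAop transgenes for human TYROBP together with human TREM2WT or TREM2R47H (the variant linked to Alzheimer's disease) where these were present. In the 18 elav libraries elav-GAL4, active in neurons throughout the nervous system, drove Aβ42 where it was present, giving control, TREM2WT/TYROBP, TREM2R47H/TYROBP, Aβ42, Aβ42/TREM2WT/TYROBP and Aβ42/TREM2R47H/TYROBP heads. In the 17 GMR libraries GMR-GAL4, active in the developing and adult eye, drove tau, giving control, TREM2WT/TYROBP, TREM2R47H/TYROBP, tau, tau/TREM2WT/TYROBP and tau/TREM2R47H/TYROBP heads. The labels do not say that libraries of a genotype came from separate crosses, so p values measure the spread between these libraries only.

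Values are log2 CPM (library-scaled read counts) as deposited, which the authors had already adjusted for RIN (RNA integrity number). Fits described below as without RIN left out only the RIN term of the model. Levels per library are given at equal RIN, that is, moved with the fitted slope to the mean RIN of 6.71. A gene was called when limma gave an adjusted p under 0.05 with a fold change above 1.2 (0.26 on the log2 scale), and interactions were called on the adjusted p alone. The table holds no counts, so the depth is unknown. Neuron markers were present in every library, with elav at 7.81 to 8.26. RNA of male-specific roX1 was at 10.6 to 12.3 in elav libraries and at 3.62 to 8.52 in GMR libraries, while yolk protein Yp1, made by females, was at -0.76 to 6.06 and at 7.64 to 17.7. This goes against the methods, which give males throughout, so sex, driver and stock cannot be told apart between the 2 drivers. Within a driver the summed level of 3 male dosage compensation genes varied too. It was 6.11 to 6.32 in GMR control and 6.12 to 8.65 in GMR TREM2R47H/TYROBP libraries. In elav heads it was 11.44 to 12.51 in control, 11.03 to 11.27 with TREM2WT/TYROBP and 10.78 to 11.42 with TREM2R47H/TYROBP. The part of sex makeup in comparisons within a driver was not tested. In 8 libraries the summed level of 8 gut digestive enzyme genes was at 4.21 to 9.21, against -2.33 to 1.31 in the other libraries. In elav heads these were control replicate 3 and Aβ42 replicates 1 and 3, all without a construct. In GMR heads they were control replicate 2, replicate 3 of TREM2WT/TYROBP and of TREM2R47H/TYROBP, tau/TREM2WT/TYROBP replicate 1 and tau/TREM2R47H/TYROBP replicate 2.

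The 32 genes were long and mostly intron. On BDGP6 (Ensembl gene models) their median span was 32.2 kb against 2.06 kb over all genes, and exons made up a median of 11% of the span against 87.0%. Of the genes, 15 lay on 3R, 8 on 2L, 3 on X, 3 on 3L, 2 on 2R and 1 (dpr7) on chromosome 4. A neighbour of the same family lay within 200 kb of 16 of them, as for dpr6 and dpr10, 8.1 kb apart, and for beat-Ic and beat-Ia, 8.3 kb apart. Exons overlapped another gene in 2, both on the opposite strand (dpr16 with cno over 118 bases, dpr4 with asRNA:CR45056 over 469 bases). Since the counting is not stated to have used strand, reads of these pairs cannot be told apart. The table named a human counterpart for 1 of the 32, dpr15 (CADM2), against 54.8% of all genes.

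All 32 were expressed in heads. Scaled to gene length, the levels in elav control heads spread over a wide range in the dpr family, from 3.87 CPM per kb for dpr3 to 70.1 for dpr7, and over a narrower one in the beat family, from 7.23 for beat-Vc to 24.3 for beat-IIa. On the log2 scale of CPM per kb the dpr genes had a median level of 3.41 and the beat genes of 3.71, against 2.59 over all genes. The 3 highest dpr genes were dpr7 (6.13 ± 0.07, SD, n = 3), dpr12 (5.52 ± 0.03) and dpr9 (4.91 ± 0.01), and the 3 lowest were dpr3 (1.95 ± 0.08), dpr16 (2.71 ± 0.11) and dpr14 (2.78 ± 0.15). The last pair lay within 1 SD of each other. The 3 highest beat genes were beat-IIa (4.60 ± 0.04), beat-IIIb (4.55 ± 0.03) and beat-VII (4.16 ± 0.05), and the 3 lowest were beat-Vc (2.85 ± 0.03), beat-Va (3.06 ± 0.02) and beat-Vb (3.09 ± 0.09). Neither beat-IIa and beat-IIIb nor beat-Va and beat-Vb differed beyond their spread. The plot of length-scaled levels shows that GMR control heads kept this order closely (rank correlation 0.985 across the 32 genes, which share libraries and gene models).

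**Figure D1:**
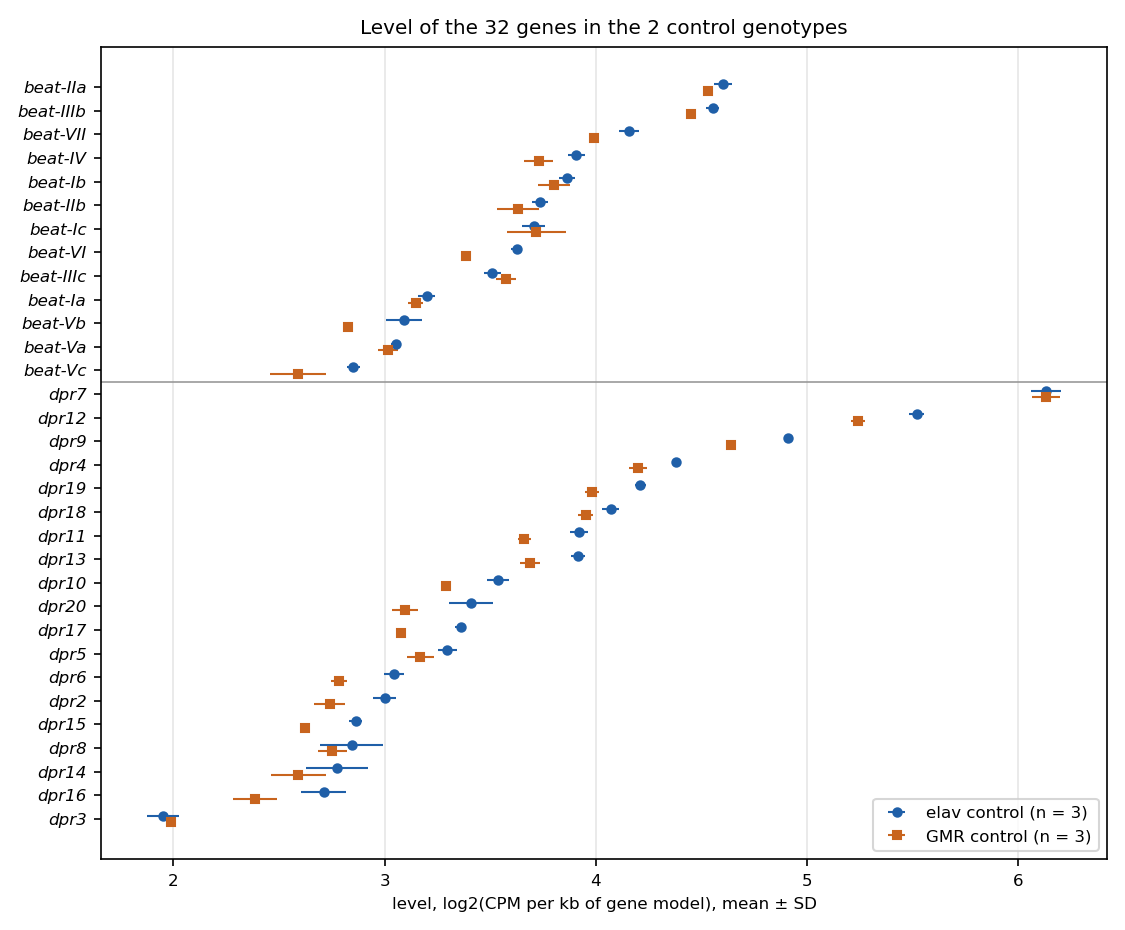
Length-scaled level (log2 of CPM per kb of gene model, as deposited) of each of the 32 genes in elav control and GMR control heads; points are means and bars are SD over 3 libraries. dpr7 stood at 6.13 in elav control heads and dpr3 at 1.95, and 29 of the 32 genes were lower in GMR than in elav controls.

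Against the control of the same driver, most of these genes moved little. Of the 32, 6 were called in at least 1 of the 10 comparisons with a control (18.8%), against 25.6% of all genes and 23.8% of the 5444 other genes within the same range of mean level (3.78 to 7.59). Together with the other comparisons of the design, 13 calls were made on 7 genes, all of them dpr genes, and 25 genes, among them all 13 beat genes, were called in none of the 21. No gene moved by as much as 0.5 on the log2 scale against a control. The median of each gene's largest absolute change was 0.17, against 0.18 for the genes of like level and 0.32 over all genes. In each of these 10 comparisons 31 or 32 of the 32 changes had a 95% interval within 1.5-fold in either direction, and 23 to 28 within 1.2-fold. In whole heads, fewer neurons of a kind and less RNA per neuron cannot be told apart.

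**Figure D2:**
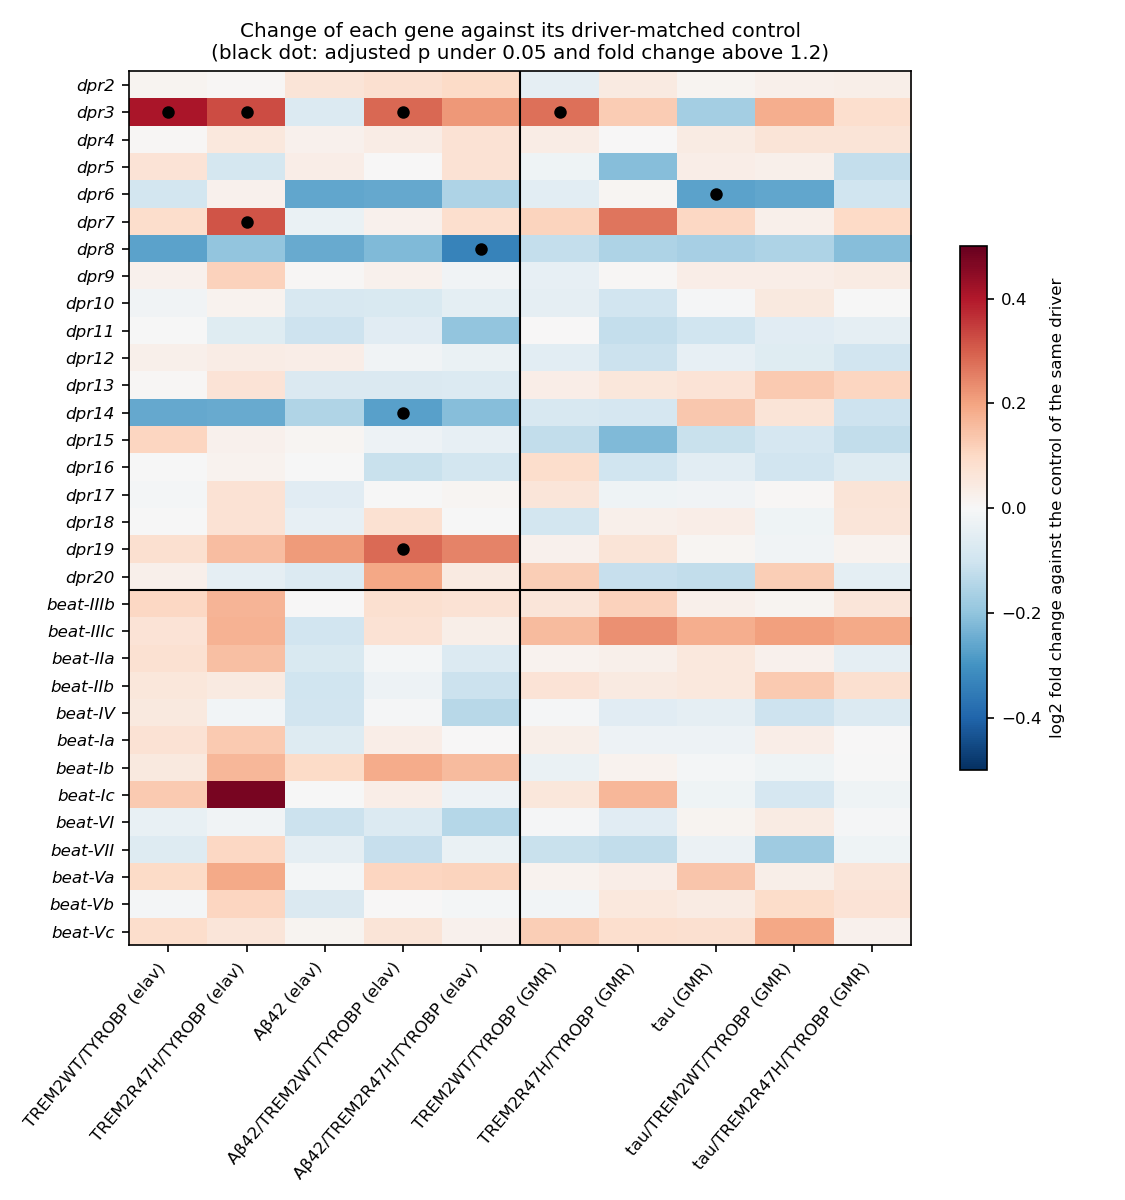
Log2 fold change of each of the 32 genes (rows) against the control of the same driver in the 10 comparisons (columns, elav left of the line, GMR right of it); a black dot marks a call. The 9 dots fall on 6 dpr genes, 4 of them on dpr3, and no beat gene has one.

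dpr3 (FBgn0053516, 2L:2058790-2109878, minus strand), the dpr gene with the lowest length-scaled level, was the one that moved repeatedly, and it moved with the TREM2/TYROBP constructs. In elav heads its level was 3.54, 3.61 and 3.65 in the control libraries. It was 4.03, 3.98 and 4.0 with TREM2WT/TYROBP and 3.88, 4.0 and 3.89 with TREM2R47H/TYROBP. Every library with a construct was above every control library. Such a lack of overlap, in either direction, was seen for 13 and 14 of the 32 genes in these comparisons. The share over all genes was not counted. dpr3 rose by 0.41 ± 0.06 (SE, adjusted p = 5.21e-05) and by 0.33 ± 0.06 (adjusted p = 0.00104), the latter not called when elav libraries were fitted alone (0.32, adjusted p = 0.157).

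dpr3 was also called on the Aβ42 background. dpr3 was at 3.44, 3.58 and 3.55 with Aβ42 alone, at 3.86, 3.95 and 3.85 in Aβ42/TREM2WT/TYROBP heads and at 3.89, 3.73 and 3.82 in Aβ42/TREM2R47H/TYROBP heads. Against Aβ42, dpr3 rose by 0.36 ± 0.06 (adjusted p = 0.000178) with TREM2WT/TYROBP and by 0.29 ± 0.06 (adjusted p = 0.00103) with TREM2R47H/TYROBP. These were the single calls among the 32 genes in both comparisons, where 3.1% and 6.16% of all genes were called. Without the 8 libraries with gut enzyme RNA, which left 1 Aβ42 library assumed to vary like the others, the differences were 0.29 (adjusted p = 0.0664) and 0.23 (adjusted p = 0.1). The call with TREM2R47H/TYROBP was also lost on the fold without Aβ42 replicate 1 (0.25) or Aβ42/TREM2R47H/TYROBP replicate 1 (0.25).

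In GMR heads dpr3 was called with TREM2WT/TYROBP and not with TREM2R47H/TYROBP. dpr3 was at 3.69, 3.63 and 3.66 in control libraries, at 4.01, 3.97 and 3.83 with TREM2WT/TYROBP and at 3.85, 3.75 and 3.77 with TREM2R47H/TYROBP. It was at 3.58 and 3.41 with tau, at 3.79, 3.85 and 3.88 in tau/TREM2WT/TYROBP heads and at 3.74, 3.69 and 3.81 in tau/TREM2R47H/TYROBP heads. dpr3 rose with TREM2WT/TYROBP by 0.28 ± 0.06 against control (adjusted p = 0.00233) and by 0.35 ± 0.06 against tau (adjusted p = 0.000905). With TREM2R47H/TYROBP the differences were 0.13 ± 0.06 (adjusted p = 0.225) and 0.25 ± 0.06 (adjusted p = 0.0154, below the fold threshold). The first call was lost on the fold without GMR control replicate 2 (0.26), TREM2WT/TYROBP replicate 1 (0.23) or replicate 2 (0.26), and the second without tau replicate 2 (0.26, adjusted p = 0.0769). Tested across the 32, the change with TREM2WT/TYROBP differed between drivers for 1 gene, dpr15, where 1.82% of all genes were called, and that with TREM2R47H/TYROBP for 0 in limma, where 0.469% were. For the latter, 4 of the 32 and 8.66% of all genes had an unadjusted p under 0.05. The driver difference of the dpr3 change was not called, at -0.13 ± 0.08 for TREM2WT/TYROBP (adjusted p = 0.509) and -0.20 ± 0.09 for TREM2R47H/TYROBP (adjusted p = 0.565).

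Over all libraries, dpr3 was at 3.69 to 4.03 (median 3.86) in the 24 with a TREM2/TYROBP construct and at 3.41 to 3.69 (median 3.58) in the 11 without, and no library with a construct was at or below the highest without. The share of all genes split in this way was not counted. At the values as deposited the groups overlapped slightly, with a lowest value of 3.667 with and a highest of 3.673 without a construct. The plot of dpr3 and dpr21 by library shows both steps.

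**Figure D3:**
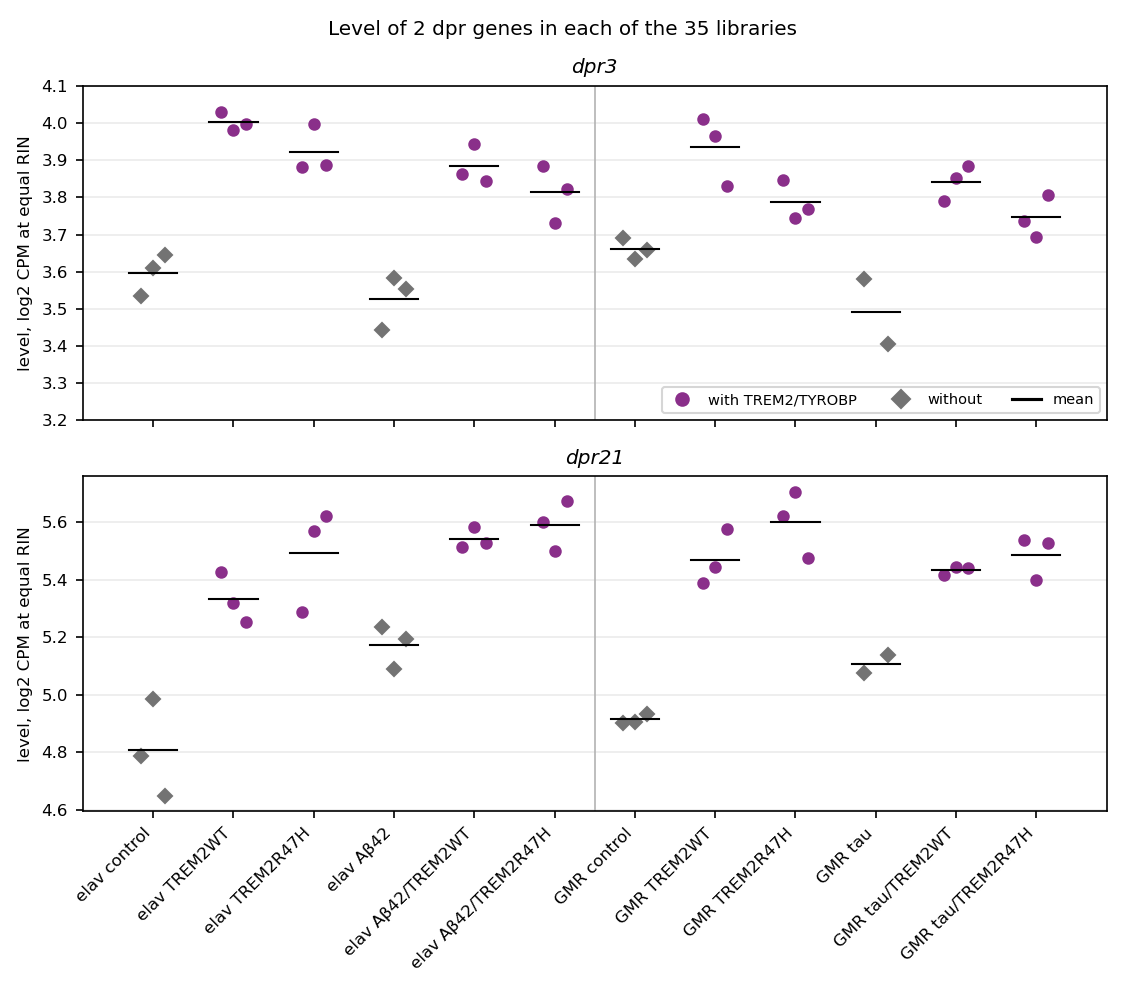
Level of dpr3 (top) and dpr21 (bottom) in each of the 35 libraries by genotype, as log2 CPM at equal RIN; circles are libraries with a TREM2/TYROBP construct, diamonds libraries without, and lines are genotype means. Libraries with a construct lie above those without for dpr3 (3.69 to 4.03 against 3.41 to 3.69), and for dpr21 within each driver.

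dpr21 (FBgn0260995, 2R:3066499-3191011, plus strand), a relative outside the 32, moved with the constructs as well. In elav heads it was at 4.79, 4.99 and 4.65 in control libraries, at 5.43, 5.32 and 5.25 with TREM2WT/TYROBP and at 5.29, 5.57 and 5.62 with TREM2R47H/TYROBP. In GMR heads it was at 4.90, 4.91 and 4.93 in control libraries, at 5.39, 5.44 and 5.58 with TREM2WT/TYROBP and at 5.62, 5.71 and 5.48 with TREM2R47H/TYROBP. It rose by 0.53 and 0.69 in elav heads (adjusted p = 0.00033 and 1.52e-05) and by 0.56 and 0.69 in GMR heads (adjusted p = 7.23e-05 and 4.1e-05). With elav libraries alone the first pair were 0.52 (adjusted p = 0.131) and 0.67 (adjusted p = 0.0943). Against Aβ42 it rose by 0.37 and 0.42 (adjusted p = 0.00959 and 0.00135), the first lost without Aβ42 replicate 2 (0.33, adjusted p = 0.053), with elav libraries alone (0.36, adjusted p = 0.161) and with roX1 as a covariate (0.30, adjusted p = 0.0603).

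dpr21 differed from dpr3 in that Aβ42 alone was also above control, at 5.24, 5.09 and 5.19. That rise was 0.37 ± 0.08 (adjusted p = 0.00393), with 0.20 (adjusted p = 0.405) without the 8 libraries with gut enzyme RNA and 0.36 (adjusted p = 0.0725) with elav libraries alone. Against tau it rose by 0.33 and 0.38 (adjusted p = 0.0456 and 0.0152), and both calls were lost without tau replicate 1 (0.29, adjusted p = 0.263 and 0.35, adjusted p = 0.135) or tau replicate 2 (0.36, adjusted p = 0.168 and 0.42, adjusted p = 0.0914). The first was also lost without any 1 of the tau/TREM2WT/TYROBP libraries (0.32 to 0.34), and the second without tau/TREM2R47H/TYROBP replicate 1 (0.35, adjusted p = 0.0631). dpr1, which acts in the taste-driven proboscis response that named the family, was called in none of the 21 comparisons.

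Genes beside dpr3 also differed with the constructs. Of the 22 genes within 50 kb of it, 7 were called in at least 1 of the 8 contrasts that added TREM2/TYROBP to an otherwise equal genotype, where 16.6% of all genes were. Kebab (2L:2045494-2048054) and CR45298 (2L:2044517-2045381), 10.7 and 13.4 kb away, fell in all 8. Of all genes, 0.462% were called in all 8, whatever the direction. Kebab was at -0.90 to 1.13 (median 0.20) without and at -1.84 to -0.77 (median -1.33) with a construct, and CR45298 at -0.10 to 1.09 and at -2.40 to -0.28. CG42296, 22.8 kb away on the same side, was called lower in 7 of the 8, and CG4259, 17.4 kb away on the other side, higher in 6. The 3 genes nested in dpr3 introns (CG12674, CR44808 and CR44055) were called in none.

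CG42296 had a low level (mean -3.21 log2 CPM), and its fall with TREM2R47H/TYROBP in elav heads varied with the setting, from -5.74 to -0.97. The CG42296 calls were lost with elav libraries alone in both elav comparisons with control (-3.28, adjusted p = 0.158 and -4.75, adjusted p = 0.0719). In GMR heads they were lost without control replicate 1 or 2, TREM2WT/TYROBP replicate 1 or 2 (-2.84 to -2.43) or TREM2R47H/TYROBP replicate 1 or 2 (-2.96 to -2.78), and against tau for TREM2R47H/TYROBP without tau replicate 1 (-3.53, adjusted p = 0.0874). Both GMR calls against control were also lost with GMR libraries alone and with roX1 as a covariate, and that with TREM2R47H/TYROBP with a replicate block. The CG4259 calls were lost with elav libraries alone against control (0.50, adjusted p = 0.148 and 0.49, adjusted p = 0.262) and without RIN for TREM2R47H/TYROBP on Aβ42 (adjusted p = 0.115) and for both constructs on tau (adjusted p = 0.659 and 0.155). dpr3 itself was called in 6 of the 8, and 0.959% of all genes were called in 6 or more in 1 direction. The Kebab and CR45298 calls against tau were lost without tau replicate 1 or 2 for TREM2R47H/TYROBP (-0.93 for Kebab, adjusted p = 0.109 and 0.163, and -1.37 and -1.13 for CR45298, adjusted p = 0.0655 and 0.21), that of Kebab also without tau/TREM2R47H/TYROBP replicate 1 (-0.85, adjusted p = 0.0777), and that of CR45298 for TREM2WT/TYROBP without tau replicate 2. That of Kebab with TREM2R47H/TYROBP in GMR heads was lost without GMR control replicate 2 (-0.81, adjusted p = 0.0667) or TREM2R47H/TYROBP replicate 1 (-0.65, adjusted p = 0.223). Each library with a construct carries the transgene insertion and the chromosome it lies on, so the expressed proteins, the insertion and the stock cannot be told apart.

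**Figure D4:**
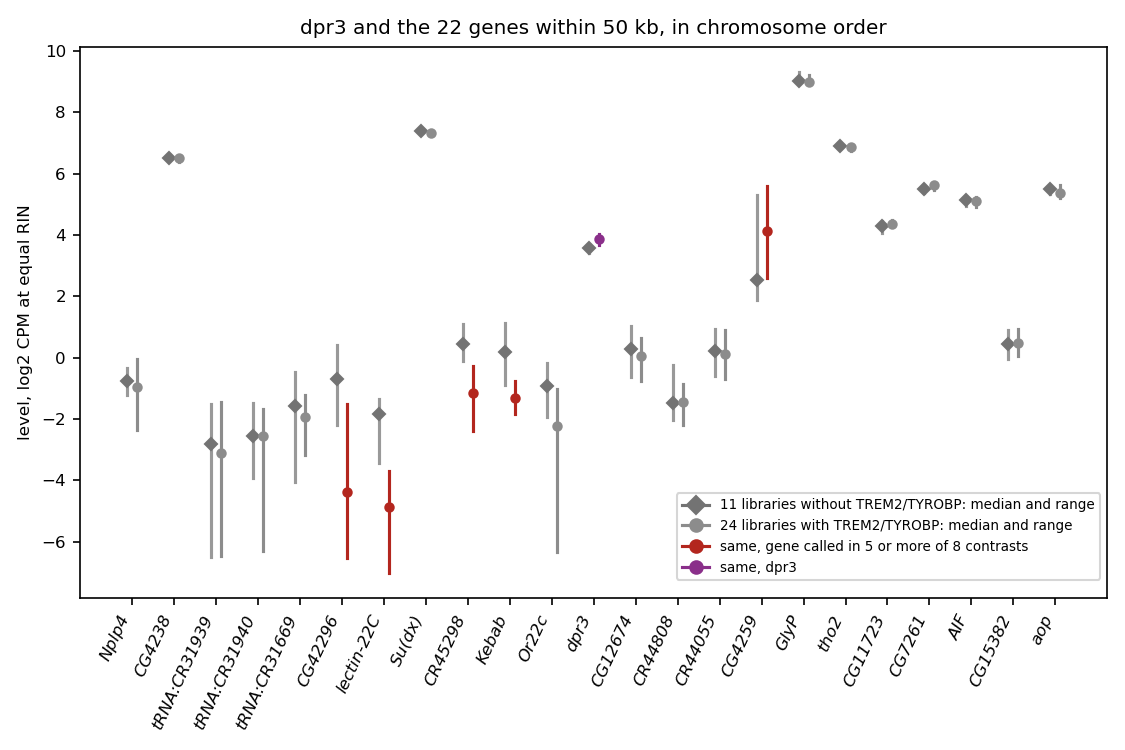
Level (log2 CPM at equal RIN, median and range over libraries) of dpr3 and the 22 genes within 50 kb, in chromosome order, in the 11 libraries without (diamonds) and the 24 with a TREM2/TYROBP construct (circles; red for genes called in 5 or more of 8 contrasts, purple for dpr3). Kebab had a median of 0.20 without and -1.33 with a construct, and CG4259, to the right of dpr3, of 2.52 and 4.12. These medians pool genotypes and drivers. In the 8 contrasts between otherwise equal genotypes, CG4259 differed by only 0.209 to 0.767 and Kebab by -2.487 to -0.925.

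With TREM2R47H/TYROBP in elav heads a second gene was called. dpr7 (FBgn0053481, 4:247124-253329, minus strand), the dpr gene with the highest length-scaled level, was at 6.78, 6.76 and 6.65 in control libraries and at 6.90, 7.06 and 7.18 with TREM2R47H/TYROBP. All 3 libraries were above the controls, but in this comparison 14 of the 32 genes had no overlap, in either direction. dpr7 rose by 0.31 ± 0.08 (adjusted p = 0.0177). With TREM2WT/TYROBP it was at 6.93, 6.79 and 6.74, a difference of 0.09. The rise was no longer called without elav control replicate 3 (0.28, adjusted p = 0.0848), TREM2R47H/TYROBP replicate 2 (0.31, adjusted p = 0.0538) or replicate 3 (0.24, adjusted p = 0.125), without the 8 libraries with gut enzyme RNA (0.29, adjusted p = 0.0636), or with elav libraries alone (0.28, adjusted p = 0.439). With roX1 as a covariate the call was lost too. In GMR heads the difference with TREM2R47H/TYROBP was 0.27 (adjusted p = 0.0523).

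In TREM2WT/TYROBP against control, dpr3 was the 1 gene of 32 called in each driver, where 4.01% of all genes were called in elav and 4.69% in GMR heads. In TREM2R47H/TYROBP against control 2 genes were called in elav heads, where 4.41% of all genes were, and 14 of the 32 (43.8%) had an unadjusted p under 0.05 against 20.9% of all genes. In GMR heads limma called 0, where 5.76% of all genes were called and 8 of the 32 had an unadjusted p under 0.05 (24.5% of all genes). In elav heads with TREM2R47H/TYROBP the beat genes had a median difference of 0.13 against -0.01 over all genes, and none was called. The 32 genes share the same libraries, so their differences were not independent. Several beat genes were lowest in replicate 1 and highest in replicate 3, as beat-Ib (5.25, 5.42 and 5.53) and beat-Va (4.76, 4.92 and 5.06). Others were not, as beat-Ia (4.78, 4.94 and 4.81). beat-Ic, a Beat protein gene 8.3 kb from beat-Ia, had the largest value there, 0.47 ± 0.15 (adjusted p = 0.0512). It was at 6.06, 6.40 and 6.95 in these libraries and at 6.07, 5.98 and 5.94 in the controls, so the groups overlapped and a single library stood far above the rest. beat-IIa and beat-IIIb had adjusted p values under 0.05 with changes below the fold threshold.

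Aβ42 alone moved no gene of the 32 past both thresholds. limma called 0 of 32, where 6.1% of all genes were called, and 7 had an unadjusted p under 0.05 (23.6% of all genes). Of these, 4 had an adjusted p under 0.05, as had 11.9% of all genes at any fold: dpr6, dpr8, dpr19 and beat-VI. The median difference of the 32 was -0.05 against -0.01 over all genes.

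dpr6 (FBgn0040823, 3L:9974651-10139360, plus strand, by the current annotation) encodes a partner of DIP-alpha. It was at 5.71, 5.72 and 5.62 in elav control libraries and at 5.45, 5.34 and 5.48 with Aβ42. Every Aβ42 library was lower, but 10 of the 32 genes had no overlap in this comparison, in either direction. The dpr6 difference of -0.26 ± 0.06 (adjusted p = 0.00421) fell just short of the fold threshold, as did that in Aβ42/TREM2WT/TYROBP heads (-0.26, adjusted p = 0.00605). In Aβ42/TREM2R47H/TYROBP heads it was -0.15 (adjusted p = 0.0773). These comparisons share their controls.

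With tau in the eye dpr6 was called lower. It was at 5.50, 5.45 and 5.42 in GMR control libraries and at 5.21 and 5.17 in the tau libraries. dpr6 fell by 0.27 ± 0.07 (adjusted p = 0.0132), the 1 call among the 32 where 5.32% of all genes were called. In tau/TREM2WT/TYROBP heads, against the same controls, the difference was -0.26 (adjusted p = 0.0135) and in tau/TREM2R47H/TYROBP heads -0.10 (adjusted p = 0.284). The call was lost without GMR control replicate 1 (-0.25, adjusted p = 0.0515), tau replicate 2 (-0.24, adjusted p = 0.223) or the 8 libraries with gut enzyme RNA (-0.27, adjusted p = 0.0778), and with roX1 as a covariate (-0.16, adjusted p = 0.436). dpr10, which shares DIP-alpha with dpr6 and lies beside it, did not follow: its differences were -0.08 for Aβ42 and -0.01 for tau. With tau 4 of 8 photoreceptor markers (median -0.28) and 4 of 8 muscle markers (median -0.30) were called lower too. Of 8 glia markers 1 was called lower, and of 8 neuron markers 0. The part of tissue makeup in the dpr6 value was not tested.

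Aβ42 with TREM2WT/TYROBP called 3 of the 32 against control, where 8.66% of all genes were called. Beside dpr3 (0.29, adjusted p = 0.00109), dpr19 rose and dpr14 fell. dpr19 (FBgn0032233, 2L:10376168-10379905, plus strand), a compact member of the Dpr family, was at 5.63, 5.62 and 5.57 in control libraries and at 5.92, 5.86 and 5.89 in these. It rose by 0.28 ± 0.06 (adjusted p = 0.0023), and differed by 0.21 (adjusted p = 0.0186) in Aβ42 heads and by 0.25 (adjusted p = 0.00407) in Aβ42/TREM2R47H/TYROBP heads, against the same controls and below the fold threshold. Of the 9 Aβ42 libraries of the 3 genotypes, each was above the 3 controls. The same held without Aβ42, for every library with TREM2WT/TYROBP (5.655 to 5.752) or TREM2R47H/TYROBP (5.642 to 5.928). In each of these elav comparisons with control, 10 to 15 of the 32 genes had no overlap, in either direction. The dpr19 call was lost without the RIN term (0.21, adjusted p = 0.05), with elav libraries alone (0.31, adjusted p = 0.113) and with roX1 as a covariate. The dpr3 call was lost on the fold without elav control replicate 1 (0.25) or Aβ42/TREM2WT/TYROBP replicate 2 (0.26), and with elav libraries alone (0.29, adjusted p = 0.0841). It was also lost without the RIN term.

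dpr14 (FBgn0029974, X:7903704-7908286, minus strand), another Dpr family gene, was at 4.58, 4.89 and 4.80 in control libraries and at 4.56, 4.54 and 4.34 with Aβ42/TREM2WT/TYROBP. It fell by 0.27 ± 0.08 (adjusted p = 0.0274). The control libraries spread as widely as the difference, and the call was kept in 6 of 15 settings. Without RIN, with 1 added before the log or with quantile normalization dpr14 was not called. The call was lost without elav control replicate 2 (-0.21, adjusted p = 0.13) or replicate 3 (-0.25, adjusted p = 0.0838) or Aβ42/TREM2WT/TYROBP replicate 3 (-0.20, adjusted p = 0.16), without the 8 libraries with gut enzyme RNA (-0.23, adjusted p = 0.134), and with elav libraries alone, where the difference was -0.11 (adjusted p = 0.695).

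In Aβ42/TREM2R47H/TYROBP heads 1 of the 32 was called against control, where 10.5% of all genes were. dpr8 (FBgn0052600, X:14322226-14462351, plus strand), a Dpr gene of long introns, was at 4.98, 5.24 and 5.24 in control libraries and at 4.81, 4.84 and 4.81 in these. dpr8 fell by 0.33 ± 0.08 (adjusted p = 0.00513), and by elav libraries alone the difference was -0.25 (adjusted p = 0.0867). Its differences against control were negative in all 10 comparisons, from -0.33 to -0.12, and the 5 of each driver share 1 set of controls. Of the partner genes followed here whatever their values, dpr11 was at -0.20 ± 0.04 in this comparison (adjusted p = 0.00206, below the fold threshold), and dpr12 and beat-Ia at -0.03 and 0.00.

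In the GMR comparisons with tau and TREM2/TYROBP together, limma called 0 of 32 against control, where 5.7% of all genes were called with TREM2WT/TYROBP and 7.95% with TREM2R47H/TYROBP. At an unadjusted p under 0.05 there were 7 and 5 of the 32, beside 20.4% and 27.8% of all genes. beat-IIIc, one of a pair of neighbouring Beat genes, had positive differences in all 5 GMR comparisons with control, from 0.16 to 0.23, and an adjusted p under 0.05 in 3 of them below the fold threshold (these share their controls). Against tau, adding TREM2WT/TYROBP called dpr3 alone (3.19% of all genes were called), and adding TREM2R47H/TYROBP called 0 (3.48% of all genes), with 4 of the 32 and 16.3% of all genes at an unadjusted p under 0.05. dpr20 gave like values when TREM2WT/TYROBP was added to either disease transgene, 0.26 ± 0.06 on Aβ42 (adjusted p = 0.00684) and 0.25 ± 0.06 on tau (adjusted p = 0.0243), both below the fold threshold.

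No gene of the 32 passed both thresholds between the R47H variant and wild-type TREM2. limma called 0 of 32 in TREM2R47H against TREM2WT heads with either driver, where 1.88% of all genes were called in elav and 1.77% in GMR heads, with 5 of the 32 at an unadjusted p under 0.05 in each, as were 16% and 14.4% of all genes. beat-VII was 0.17 ± 0.04 higher with TREM2R47H in elav heads (adjusted p = 0.0288, below the fold threshold), at 6.78, 6.84 and 6.95 against 6.73, 6.66 and 6.68, without overlap. In that comparison 5 of the 32 had no overlap, in either direction. For dpr3 the difference was -0.08 (95% interval -0.19 to 0.03) in elav and -0.15 (-0.29 to -0.01, adjusted p = 0.297) in GMR heads. None of the 4 interactions of a disease transgene with a construct was called for any of the 32 in limma, where 0.238%, 0.672%, 0.357% and 0.175% of all genes were called (Aβ42 with TREM2WT and TREM2R47H, tau with TREM2WT and TREM2R47H). At an unadjusted p under 0.05 there were 3, 3, 1 and 4 of the 32, beside 7.07%, 10.3%, 14.5% and 10.7% of all genes.

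The DIP receptors, known from binding the Dpr proteins, were called lower where they were called against a control. DIP-lambda (2R:432219-705848) fell with TREM2WT/TYROBP by 0.42, with Aβ42 by 0.35, with Aβ42/TREM2WT/TYROBP by 0.47 and with Aβ42/TREM2R47H/TYROBP by 0.43 in elav heads (adjusted p = 0.00174, 0.00284, 0.000203 and 0.0003). The first was not called with elav libraries alone (-0.40, adjusted p = 0.0727). DIP-lambda was also 0.32 higher with TREM2R47H/TYROBP than with TREM2WT/TYROBP (adjusted p = 0.0197), a call lost without any 1 of the 3 TREM2WT/TYROBP libraries (0.31 to 0.33) or without TREM2R47H/TYROBP replicate 3 (0.25, adjusted p = 0.159). DIP-beta (X:21422115-21457738) fell with Aβ42 by 0.27, with Aβ42/TREM2WT/TYROBP by 0.33 and with Aβ42/TREM2R47H/TYROBP by 0.28. The first was kept in 7 of 15 settings. Beside the log2 threshold of 1, it was lost without the 8 libraries with gut enzyme RNA (-0.22, adjusted p = 0.0819) and, on the fold, without elav control replicate 2 (-0.26) or Aβ42 replicate 1 (-0.24), with elav libraries alone (-0.25), without RIN (-0.24), with quantile normalization (-0.26) or with 1 added before the log (-0.26). The last was lost without Aβ42/TREM2R47H/TYROBP replicate 3 (-0.24), without RIN and with elav libraries alone. With elav libraries alone the DIP-beta value in Aβ42/TREM2WT/TYROBP heads was -0.28 (adjusted p = 0.068).

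DIP-eta had the 1 called interaction among the relatives, -0.24 for Aβ42 with TREM2R47H/TYROBP (adjusted p = 0.034), which was lost when any of 9 libraries was left out, among them each of the 3 elav controls (-0.22 to -0.25, adjusted p of 0.0502 or more). It was kept in 7 of 21 settings. The call was also lost without RIN, with elav libraries alone, without the 8 libraries with gut enzyme RNA and with roX1 as a covariate. Of the 11 DIP genes, 0 to 2 were called lower and 0 higher in each of the 10 comparisons with control, where 4.01% to 10.5% of all genes were called. DIP-alpha, the partner of dpr6 and dpr10, was at -0.26 ± 0.05 with Aβ42 (adjusted p = 0.00155, at the edge of the fold threshold), beside -0.26 for dpr6 and -0.08 for dpr10. For dpr11, which pairs with DIP-gamma between R7 photoreceptors and their targets, and dpr12, which pairs with DIP-delta in the mushroom body, neither partner was called against any control. Of the 8 Side family genes, 0 were called in any comparison with control, and side itself, the ligand of Beat-Ia, was at -0.18 ± 0.04 in Aβ42/TREM2R47H/TYROBP heads (adjusted p = 0.00421, below the fold threshold), beside 0.00 for beat-Ia.

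The clearest shift of the 32 as a set was between the drivers. In GMR control against elav control heads 29 of the 32 had a negative difference, with a median of -0.17 against 0.005 over all genes. The dpr genes had a median of -0.22 and the beat genes of -0.08. Only dpr16, which shares exonic sequence with cno, passed the fold threshold, where 24.7% of all genes were called: it was at 4.15, 4.26 and 4.28 in elav and at 4.07, 3.95 and 3.86 in GMR control libraries, and fell by 0.27 ± 0.07 (adjusted p = 0.00252). An adjusted p under 0.05 at any fold was reached by 18 of the 32, against 38.6% of all genes. dpr20 (-0.26, adjusted p = 0.000853), dpr17 (-0.24, adjusted p = 5.71e-05), dpr9 (-0.24, adjusted p = 6.15e-05) and dpr12 (-0.23, adjusted p = 1.4e-05) were among them, while dpr3 (0.07), dpr7 (0.00) and beat-Ia (-0.03) were near zero. The dpr16 call was lost on the fold without elav control replicate 2 (-0.26) or 3 (-0.25), GMR control replicate 2 (-0.26) or 3 (-0.22), and without the 8 libraries with gut enzyme RNA (-0.24, adjusted p = 0.0732).

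**Figure D5:**
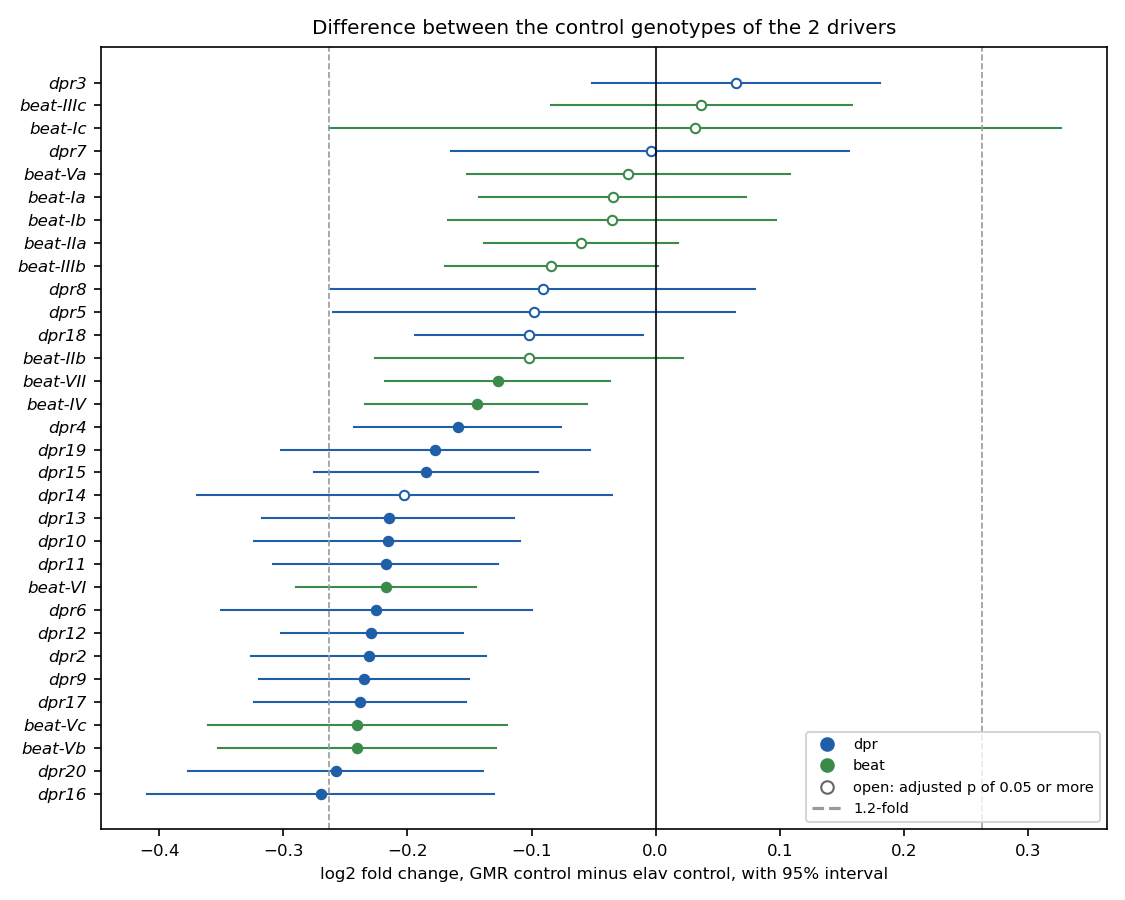
Log2 fold change of each of the 32 genes in GMR control against elav control heads, with 95% intervals (blue for dpr, green for beat, open where the adjusted p was 0.05 or more; dashed lines mark 1.2-fold). The intervals of 18 genes with an adjusted p under 0.05 lie below zero, and dpr16 at -0.27 is the gene past the dashed line.

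The difference between drivers held over whole sets of libraries for some genes. For 7 of the 32, all dpr genes (dpr2, dpr4, dpr9, dpr12, dpr15, dpr17 and dpr19), every one of the 17 GMR libraries was below every one of the 18 elav libraries at equal RIN, as was so for 4.03% of all genes. dpr15, the one with a human counterpart in the table, was at 4.20 to 4.46 (median 4.35) in GMR and at 4.51 to 4.80 (median 4.64) in elav libraries. dpr19 was at 5.31 to 5.55 and at 5.57 to 5.93. Among the partners DIP-alpha fell by 0.57 (adjusted p = 1.26e-08) and side by 0.35 (adjusted p = 6.39e-07), while DIP-lambda fell by 0.45. With roX1 as a covariate, which itself splits the drivers, these 3 turned positive (0.29, 0.22 and 0.85, adjusted p of 0.881 or more).

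Lists of other neuronal genes moved the same way between the controls of the drivers, though photoreceptor markers did not. Of 53 other surface recognition genes, the Side family among them, 19 fell and 3 rose (median -0.20), and of 28 synaptic and pan-neuronal genes 12 fell and 0 rose (median -0.25). Of all genes 24.7% were called there. The summed level of 8 neuron markers was 11.9 to 12.1 in GMR and 12.0 to 12.3 in elav libraries, and that of 8 muscle markers 12.2 to 12.8 and 11.8 to 12.3. Glia markers were at 11.2 to 11.4 and 11.3 to 11.4 and photoreceptor markers at 15.2 to 15.7 and 15.4 to 15.6. These ranges include the tau and Aβ42 libraries. Between the controls, 3 photoreceptor markers were called higher in GMR heads and 0 lower (median 0.14). Of the muscle markers 5 were called higher and 0 lower (median 0.49), and of the neuron markers 4 lower and 0 higher (median -0.26). The summed level of the 7 measured fat body markers of 8 did not overlap, at 14.8 to 19.9 in GMR and 14.1 to 14.6 in elav libraries. Such a sum is set by its most abundant RNAs. Taken singly, 5 of these markers were called higher between the controls (median 0.82). The part of tissue makeup in these differences was not tested.

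The wider lists were also read within elav heads, where they and the 32 share their controls. In Aβ42/TREM2R47H/TYROBP against control heads 11 of the 28 synaptic and pan-neuronal genes fell and 0 rose (median -0.19), and 8 of the 53 other surface recognition genes fell and 1 rose (median -0.11), beside 1 of 32 with a median of -0.01 and calls on 10.5% of all genes. In that comparison 4 of 8 neuron markers (median -0.28), 4 of 8 muscle markers (median -0.29) and 4 of 7 measured fat body markers (median -1.30) were called lower too, and their part in the list values was not tested. The summed fat body level was not lower, at 14.15 to 14.41 against 14.1 to 14.3 in control libraries. With Aβ42 alone 4 of the 7 fat body markers were called lower as well (median -1.34). With TREM2WT/TYROBP 7 of the 28 fell (median -0.12) and with TREM2R47H/TYROBP 7 fell and 1 rose (median -0.07), beside medians of 0.03 and 0.07 for the 32. Of all genes 4.01% and 4.41% were called in these comparisons. With Aβ42 alone 3 of the 28 fell (median -0.14) and 0 of the 53 (median -0.07), beside 0 of the 32 (median -0.05) and 6.1% of all genes called. With tau 1 of the 28 and 2 of the 53 fell, where 5.32% of all genes were called. The difference between the lists was not tested.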

How the data were processed

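Heads of 12 genotypes were sequenced in 35 libraries after depletion of ribosomal RNA (TruSeq kit, single-end reads). The deposited table holds log2 CPM values that the authors made: STAR 2.5.0b on BDGP6, featureCounts per Ensembl gene, genes with at least 5 reads in a library kept, TMM normalization and adjustment for RIN. Reads were not realigned or recounted here, and no fold changes or p values of the authors were used. Totals of back-transformed values differed between libraries, and the depth is unknown.

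Each gene was fitted with limma 3.58.1 (R 4.3.3) on 12 genotypes and RIN over all 35 libraries, with Benjamini-Hochberg adjustment over 14279 genes in each of 21 comparisons. The code was tested on simulated data. Genes are named where called, where among the 3 highest or lowest levels of a family, or as known partners of dpr6, dpr10, dpr11, dpr12 and beat-Ia, and others where a sentence counts them. The 32 genes, the related lists and the comparisons were chosen with earlier results of these data known. Log2 length in kb was subtracted for length-scaled levels. Coordinates are those of BDGP6 in the table, which for 30 of the 32 genes were also those of the current Ensembl annotation; for dpr6 and beat-Vc the latter was used. Alternatives were 8 planned and 2 added after seeing the data (without 8 libraries with gut enzyme RNA, and roX1 as a covariate).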

Additional observations from a re-analysis of the deposited data

Results flagged for a closer look

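dpr15 had a TREM2WT/TYROBP effect that differed between the drivers. Its change with TREM2WT/TYROBP was -0.13 in GMR heads and 0.11 in elav heads, neither of them called, and the test of the difference gave -0.23 ± 0.06 (adjusted p = 0.0472, 1 of the 32 genes where 1.82% of all genes were called). The GMR libraries were at 4.44, 4.46 and 4.46 in control and at 4.35, 4.31 and 4.33 with the construct. The elav libraries were at 4.65, 4.63 and 4.63 in control and at 4.76, 4.80 and 4.68 with it, so all 3 libraries moved down in one driver and up in the other. Whatever the direction, 7 of the 32 genes in GMR and 13 in elav heads had no overlap with their controls. Of 12 fits with 1 library left out, the difference was no longer called in 11 (-0.25 to -0.21, adjusted p of 0.0722 to 0.124). The call was also lost without RIN, with a replicate block, without the 8 libraries with gut enzyme RNA and with roX1 as a covariate. The matching difference for TREM2R47H/TYROBP was -0.24 ± 0.07 (adjusted p = 0.207), where 0.469% of all genes were called. Sex, driver and stock cannot be told apart between the drivers.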

How the results depend on the processing

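The 13 calls on the 32 genes were each refitted under other settings. Over 179 such refits, with a threshold of 1 on log2 left out, 129 kept the call, 50 lost it and 0 reversed. The rise of dpr3 with TREM2WT/TYROBP in elav heads was kept in every one. With a log2 fold change above 1, a threshold the methods also name, 0 of the 32 were called in any comparison.

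Counts of called genes among the 32 follow, with the count reported above in brackets. Adding 1 before the log gave 0 (1) for TREM2WT/TYROBP in GMR heads, 0 (1) for tau, 0 (1) for GMR against elav control and 1 (0) for TREM2R47H/TYROBP in GMR heads. Leaving out the RIN term, on values the authors had already adjusted for RIN, also moved counts. They were 0 (1) for TREM2WT/TYROBP in GMR heads, 0 (1) for tau, 1 (0) for Aβ42, 1 (3) for Aβ42/TREM2WT/TYROBP against control, 2 (1) for TREM2WT/TYROBP added to tau, 2 (1) for TREM2WT/TYROBP in elav heads and 7 (1) for GMR against elav control. With genes of a mean of at least 0 they were 1 (0) for TREM2R47H/TYROBP in GMR and 2 (1) for TREM2WT/TYROBP in elav heads. With the libraries of 1 driver alone they were 0 (1) for Aβ42/TREM2R47H/TYROBP against control, 0 (2) for TREM2R47H/TYROBP in elav heads, 1 (0) for tau/TREM2WT/TYROBP against control, 1 (0) for Aβ42, 1 (3) for Aβ42/TREM2WT/TYROBP against control, where dpr3, dpr14 and dpr19 all lost their call and another gene was called, and 2 (1) for TREM2WT/TYROBP added to Aβ42. With quantile normalization they were 0 (1) for TREM2WT/TYROBP in GMR heads, 0 (1) for TREM2R47H/TYROBP added to Aβ42, 1 (0) each for TREM2R47H/TYROBP in GMR heads, tau/TREM2WT/TYROBP against control and Aβ42, 2 (1) for TREM2WT/TYROBP added to tau and 5 (1) for GMR against elav control.

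Both alternatives added after seeing the data also moved counts. Without the 8 libraries with gut enzyme RNA they were 0 (1) each for tau and for either construct added to Aβ42, 1 (0) each for TREM2R47H/TYROBP added to tau and for Aβ42, 1 (2) for TREM2R47H/TYROBP in elav heads, and 2 (1) each for GMR against elav control and TREM2WT/TYROBP added to tau. With roX1 as a covariate they were 0 (1) for GMR against elav control and for tau, 1 (0) each for TREM2R47H/TYROBP in GMR heads and added to tau, 2 (0) for Aβ42, 2 (1) each for Aβ42/TREM2R47H/TYROBP against control and TREM2WT/TYROBP added to Aβ42, and 3 (1) for TREM2WT/TYROBP in elav heads. In that fit the differences of DIP-alpha, side and DIP-lambda between drivers turned to 0.29, 0.22 and 0.85. The cause was not tested.

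With 1 library left out, counts ranged in elav heads from 1 to 3 for TREM2WT/TYROBP, 1 to 4 for TREM2R47H/TYROBP, 0 to 1 for Aβ42, 2 to 5 for Aβ42/TREM2WT/TYROBP, 1 to 2 for Aβ42/TREM2R47H/TYROBP, 0 to 2 for TREM2R47H against TREM2WT, 1 to 2 and 0 to 1 for TREM2WT/TYROBP and TREM2R47H/TYROBP added to Aβ42, and 0 to 0 and 0 to 1 for their interactions with Aβ42. In GMR heads they ranged from 0 to 1 for TREM2WT/TYROBP, 0 to 2 for TREM2R47H/TYROBP, 0 to 1 for tau, 0 to 2 for tau/TREM2WT/TYROBP, 0 to 0 for tau/TREM2R47H/TYROBP, 0 to 1 for TREM2R47H against TREM2WT, 1 to 2 and 0 to 1 for the constructs added to tau, and 0 to 0 for both interactions with tau. For GMR against elav control they ranged from 0 to 4, the highest without elav control replicate 1.

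Libraries of different genotypes share replicate numbers, and their deviations correlated at -0.398 to 0.473, with every pair over 0.1 in 1 of 16 comparisons, so they were not treated as paired. With the replicate block the count fell to 0 (1) for tau and to 0 (1) for GMR against elav control, and the dpr15 difference between drivers was not called. The deposited values hold no counts, so no limit from depth can be given.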
